A study of Homo sapiens with 7 samples.

Results

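The LINC RNAs are long intergenic non-coding RNAs, transcripts of genes that carry no recognised protein and that are numbered by locus because most have no assigned function. Rows of the deposited expression tables were taken as members if they were typed lncRNA, had a symbol beginning with LINC and reached at least 100 counts in at least 2 of the 7 libraries. The rule found 100 of 1920 LINC rows, among 16840 lncRNA rows and 60662 genes in all. Because the members were chosen by their measured counts, their being expressed is a description and no result. LINC02575, LINC00653 and LINC00894 lay just inside the threshold, with second-highest counts of 101, 103 and 105. LINC01260, LINC00921 and LINC01115 lay just outside it, with 96.5, 93 and 92.

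The study asked what inactivating STAG2 does to the transcriptome of T-cell acute lymphoblastic leukaemia lines. Total RNA was sequenced from 7 libraries of 2 human lines. PF-382 gave 3 libraries from cells edited at STAG2 with a Cas9-guide RNA ribonucleoprotein (the knockout) and 2 libraries from unedited wild-type cells. MOLT-14 gave 1 library after STAG2 transduction and 1 after transduction of the empty vector. The labels do not say whether the knockout libraries are clones or pools, nor whether libraries of a group come from separate cultures, so p values measure only the spread between these libraries.

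STAG2 is a subunit of cohesin, the ring complex that holds sister chromatids together and forms chromatin loops, and STAG1 is its paralogue. Intergenic lncRNAs are transcribed by RNA polymerase II, are usually spliced and polyadenylated, and are known for low levels and for expression that is restricted to particular cell types. Several are transcribed from the same promoter region as a coding gene or from regions with enhancer marks, and for a small number an RNA or a short peptide with a function has been described.

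STAG2 itself was measured in every library first, in CPM (counts relative to the library total, scaled by TMM over all 7 libraries). It had 256, 180 and 195 CPM in the knockout libraries, against 334 and 567 CPM in wild type (log2 change −1.13, adjusted p 0.0218 in edgeR). In MOLT-14 it had 137 CPM in the STAG2-transduced library and 1.15 CPM in the empty-vector library. STAG2 RNA was thus lower in the knockout without being lost, and the protein was not measured here. STAG1 had 138, 139 and 142 CPM in the knockout libraries, against 56.6 and 49.8 CPM in wild type. The libraries held 65262329 to 93970572 counts in the knockout, 32609485 and 33145516 in wild type, and 45013450 and 38678382 in the STAG2 and empty-vector libraries of MOLT-14. T-cell markers were present in all, with 7 or 8 of 8 genes at 1 CPM or more, and markers of 5 other cell types were mostly near 0. The exceptions included CD79A, at 3.83 to 41.3 CPM over the 7 libraries, and COL1A1, at 0.928 to 2.84 CPM. Natural killer markers included NCAM1, at 12.9 to 17.6 CPM in PF-382, and NKG7, at 19.6 and 21.4 CPM in MOLT-14. Of 4 such markers, 2 with STAG2 and 3 with the empty vector reached 1 CPM in MOLT-14. CD68 had 0.0982, 0.0578 and 0.137 CPM in the knockout, against 7.41 and 8.03 CPM in wild type. CD14, MPO and CSF1R stayed at or under 0.143 CPM everywhere. The 5 myeloid markers summed to 0.378 CPM with STAG2 and 2.46 CPM with the empty vector in MOLT-14. In the empty-vector library 1 of them reached 1 CPM. Mitochondrial genes took 0.322%, 0.256% and 0.222% of counts in the knockout, against 0.600% and 0.550% in wild type, with 1.43% and 4.92% in the STAG2 and empty-vector libraries of MOLT-14. Small RNA genes took 12.0%, 14.0% and 13.7% in the knockout, against 20.98% and 14.9% in wild type. The part of these shares and of CD68-expressing cells in the differences between knockout and wild type was not tested, and in bulk RNA fewer cells of a type and less RNA per cell cannot be told apart.

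The sequence just upstream of 5 members described below is shown. LINC00665 and LINC00892 were near 0 in PF-382 and high in MOLT-14. LINC00847 and LINC02325 were detected almost entirely in PF-382, and LINC00205 shares its promoter region with a coding gene. All but LINC00205 entered only through the line where they were high, so these differences were favoured by the rule and are no result. Each sequence is the RefSeq window (GRCh38.p14) from 250 bases before to 50 after the annotated start, 5′ to 3′ on the gene's strand. Capitals mark matches, on either strand, to CCGGAAG (an ETS motif), TGTGGT (a RUNX motif) or GGNGGCAG (the core of the CTCF motif).
LINC00665 (chr19:36331669-36331968, minus strand, ETS): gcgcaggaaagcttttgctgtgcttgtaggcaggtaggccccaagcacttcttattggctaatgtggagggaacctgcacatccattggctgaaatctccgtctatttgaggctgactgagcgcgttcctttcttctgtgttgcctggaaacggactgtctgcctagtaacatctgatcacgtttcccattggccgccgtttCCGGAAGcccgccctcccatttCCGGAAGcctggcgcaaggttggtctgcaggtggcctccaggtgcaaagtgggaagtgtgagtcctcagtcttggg
LINC00847 (chr5:180830707-180831006, plus strand, CTCF core): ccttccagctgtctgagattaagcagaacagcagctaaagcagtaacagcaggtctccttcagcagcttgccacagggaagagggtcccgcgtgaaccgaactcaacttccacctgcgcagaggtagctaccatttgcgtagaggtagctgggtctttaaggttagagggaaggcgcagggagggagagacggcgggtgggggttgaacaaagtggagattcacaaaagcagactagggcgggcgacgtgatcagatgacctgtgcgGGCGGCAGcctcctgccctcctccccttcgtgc
LINC00205 (chr21:45287802-45288101, plus strand, CTCF core and ETS): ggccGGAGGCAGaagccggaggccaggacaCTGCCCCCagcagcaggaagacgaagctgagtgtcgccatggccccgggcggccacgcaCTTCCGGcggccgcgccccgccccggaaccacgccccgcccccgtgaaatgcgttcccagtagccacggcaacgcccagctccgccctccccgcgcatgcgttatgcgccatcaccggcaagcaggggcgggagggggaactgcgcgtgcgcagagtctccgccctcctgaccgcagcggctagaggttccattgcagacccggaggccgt
LINC00892 (chrX:136639293-136639592, plus strand, RUNX): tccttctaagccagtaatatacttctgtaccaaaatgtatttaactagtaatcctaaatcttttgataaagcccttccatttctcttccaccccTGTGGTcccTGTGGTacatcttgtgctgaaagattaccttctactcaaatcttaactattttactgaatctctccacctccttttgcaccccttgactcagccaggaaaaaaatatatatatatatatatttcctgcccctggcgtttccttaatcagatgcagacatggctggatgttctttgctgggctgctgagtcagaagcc
LINC02325 (chr14:97458566-97458865, plus strand, RUNX and ETS): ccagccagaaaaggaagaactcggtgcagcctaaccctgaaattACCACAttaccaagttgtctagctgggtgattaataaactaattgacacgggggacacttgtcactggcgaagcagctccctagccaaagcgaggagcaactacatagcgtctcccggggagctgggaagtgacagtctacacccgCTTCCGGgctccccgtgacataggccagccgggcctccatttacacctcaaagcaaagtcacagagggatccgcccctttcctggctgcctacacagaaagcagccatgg

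RefSeq held a promoter window for 64 of the 100 members, and for 39 of these its start lay within 50 bases of the start used here. The ETS letters occurred in 18.8% of the 64 windows, against 10.2% of all 34943 promoter windows, the RUNX letters in 20.3% against 13.1%, and the CTCF core letters in 21.9% against 16.6%. TATAAA occurred in 15.6% of members' windows against 11.6% of all, AGATAA, which binds factors of the GATA family, in 14.1% against 10.4%, and CACGTG (an E-box) in 12.5% against 7.23%. None of these motifs contains another, and a match describes the letters of a window, not a bound site. The median GC content was 55.2% in members' windows and 58.7% in all. The 5 windows shown ranged from LINC00892, with 40.3% GC and 1 CpG, to LINC00205, with 72.3% GC and 34 CpGs.

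Members were expressed at low levels. TPM, a level per transcript length, averaged 0.176 to 17.0 over the 7 libraries, with a median of 1.48, whereas the 11763 protein-coding genes that passed the same count rule had a median of 7.54. Their exons covered a median of 3239 bases (711 to 27605) in 5 exon blocks, and 15 members were single-exon. The 100 members together took 0.0459% to 0.0477% of the counts in the knockout libraries, 0.0702% and 0.0518% in wild type, and 0.0813% and 0.0943% in the MOLT-14 STAG2 and empty-vector libraries. Chromosomes 1 and 2 held 12 members each, chromosome 19 held 8 and the X chromosome 6. In all 7 libraries 32 members reached 100 counts, while 25 entered through the MOLT-14 libraries alone and 17 through the PF-382 libraries alone. Because the knockout libraries were deeper, 100 counts stood for 1.06 to 1.53 CPM there and for 3.02 to 3.07 CPM in wild type. In all, 13 members reached 100 counts in a knockout library and in no wild-type library, whatever their counts in MOLT-14. Only 4 members entered through the knockout libraries alone.

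LINC00892 had the highest mean TPM and LINC01578 the next, but their patterns were opposite in kind. LINC00892 (chromosome X, bases 136639543 to 136642429, 2 exon blocks) had 0.02, 0 and 0.02 TPM in the knockout, 0.02 and 0 TPM in wild type, 56.5 TPM with STAG2 and 62.5 TPM with the empty vector in MOLT-14. LINC01578 had 16.0, 13.6 and 13.7 TPM in the knockout, 17.9 and 19.6 TPM in wild type, 13.8 TPM with STAG2 and 23.8 TPM with the empty vector. LINC01578 is also named CHASERR, a transcript known to act in cis on CHD2, the chromatin remodeller gene next to it. Of the other 8 among the 10 highest members, LINC01089, LINC01120, LINC00649, LINC00339, LINC02611, LINC00662 and LINC00909 stayed within 10-fold over the 7 libraries, and LINC00665 shared the pattern of LINC00892.

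**Figure D1:**
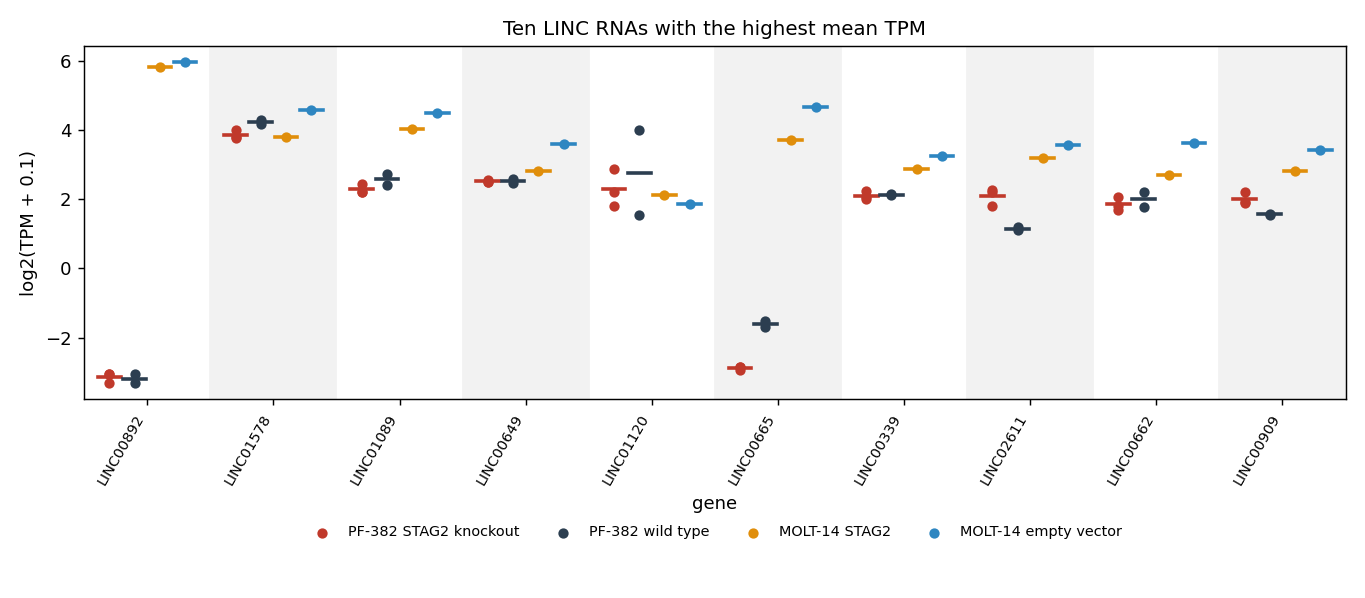
The 10 LINC RNAs with the highest mean TPM (x axis), with 1 point per library as log2(TPM + 0.1) on the y axis, from left to right in PF-382 knockout, PF-382 wild type, MOLT-14 STAG2 and MOLT-14 empty vector; short lines mark group means. LINC00892 and LINC00665 are near the bottom in all 5 PF-382 libraries and high in both MOLT-14 libraries, and the other 8 stay within 10-fold over all libraries.

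STAG2 knockout in PF-382 was accompanied by lower levels of members more often than by higher ones. Of 91 members with enough counts to test, 23 were lower and 5 higher in knockout than in wild type at an adjusted p below 0.05, and 63 were not called, with log2 changes from −1.46 to 0.98. Over all 17442 genes tested, 14.6% were called lower and 15.8% higher, and over the 2614 lncRNA genes 20.6% were called lower and 3.4% higher. The members' shares were 25.3% lower and 5.49% higher, close to those of lncRNA genes. Their median log2 change was −0.48, against −0.02 for all genes, −0.54 for lncRNA genes and 0.09 for protein-coding genes. Among the called members, 19 were lower and 3 higher by 2-fold or more, and the knockout and wild-type libraries did not overlap for any of the 28, as for 99.7% of all genes called. The wild-type group held only 2 libraries. They differed by more than 2-fold for 19 of 83 members with 1 CPM or more in either, and the first was the higher for 15 of these. The highest and lowest knockout libraries did so for 7 of 73 members with 1 CPM or more in a knockout library. These counts are given without the share over all genes and are no result about the members.

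**Figure D2:**
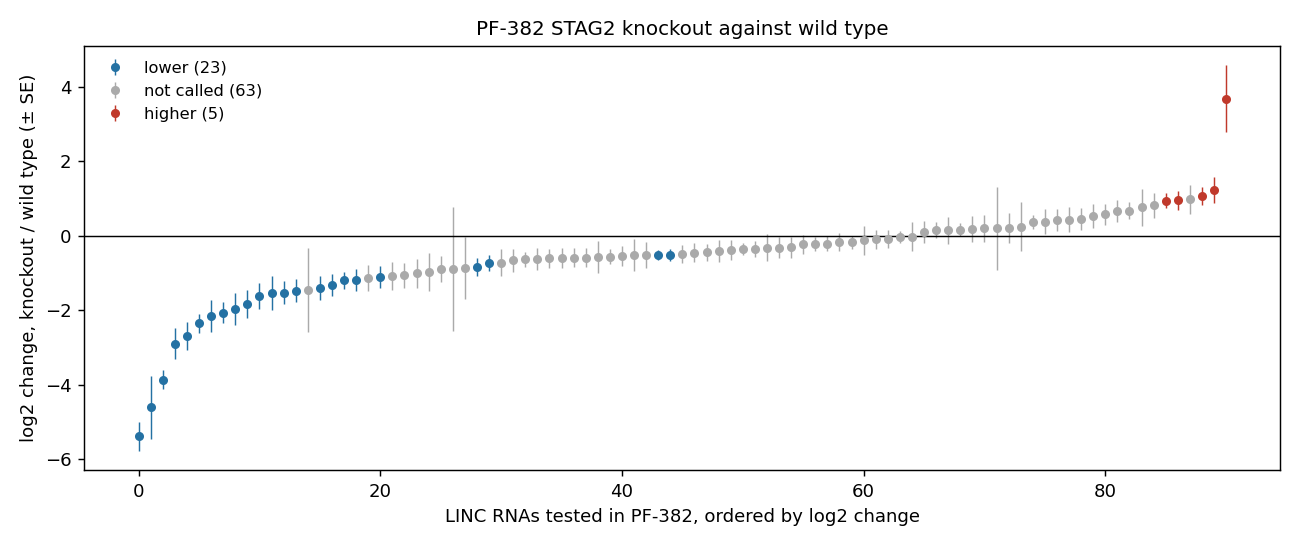
The 91 LINC RNAs tested in PF-382, ordered along the x axis by their log2 change, with knockout over wild type on the y axis and bars of ± 1 SE from edgeR's fit. The 23 called lower and 5 called higher lie on both sides of 0 among RNAs that were not called, whose changes ran from −1.46 to 0.98.

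LINC01749 showed the largest fall. It had 0.557, 1.33 and 1.31 CPM in the knockout libraries, against 53.6 and 34.6 CPM in wild type, a 41.7-fold lower level (log2 change −5.38 ± 0.39 SE, adjusted p 0.00218). All 3 knockout libraries were far under both wild-type libraries and close to MOLT-14, where it had 0.876 CPM with STAG2 and 0.123 CPM with the empty vector. The gene lies on chromosome 20, bases 63009383 to 63085071 (GRCh38), 2348 bases from BHLHE23, which encodes a basic helix-loop-helix transcription factor. Across the 7 libraries the members whose log2 CPM followed it most closely were LINC02245, LINC01003 and LINC01578, with Pearson's r of 0.96, 0.86 and 0.81, a description over 7 points of which 5 are PF-382. LINC02245 had 2.23, 1.94 and 2.48 CPM in the knockout, against 5.28 and 4.66 CPM in wild type.

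LINC01226 and LINC02580 fell from levels that were readily counted in wild type. LINC01226 had 1.57, 1.71 and 2.23 CPM in the knockout libraries, against 20.9 and 31.6 CPM in wild type (log2 change −3.86 ± 0.26 SE, adjusted p 0.00218). Its exons overlap those of TINAGL1 on the same strand of chromosome 1 and part of its counts were fractional, so reads of the 2 genes were divided by estimation. TINAGL1, which encodes a secreted matrix protein, had 0.0819, 0.116 and 0.191 CPM in the knockout and 1.88 and 0.745 CPM in wild type. LINC02580 had 0.999, 1.32 and 0.642 CPM in the knockout, against 9.56 and 4.92 CPM in wild type (log2 change −2.90 ± 0.41 SE, adjusted p 0.00593). The groups did not overlap for either RNA.

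LINC02207 and LINC00665 were called lower from small numbers of reads. LINC02207 had 0, 1 and 4 counts in the knockout libraries, against 24 and 13 counts in wild type, which is 0, 0.0116 and 0.0546 CPM against 0.750 and 0.421 CPM (log2 change −4.60 ± 0.84 SE, adjusted p 0.0112). LINC00665, from which a short peptide binding the phosphatase inhibitor CIP2A has been described in breast cancer cells, had 0.115, 0.127 and 0.123 CPM in the knockout, against 0.844 and 0.712 CPM in wild type (log2 change −2.68 ± 0.38 SE, adjusted p 0.00565). Both were readily counted in MOLT-14, and in PF-382 even the wild-type libraries were under 1 CPM. Of the 23 members called lower, 11 averaged under 1 CPM in the knockout.

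The remaining large falls were in LINC01237, LINC-PINT, LINC00663, LINC01341 and LINC00847. LINC-PINT, a p53-induced transcript, had 0.704, 0.682 and 0.573 CPM in the knockout, against 4.13 and 1.62 CPM in wild type (log2 change −2.16 ± 0.43 SE, adjusted p 0.0140). LINC01237 had 0.704, 0.798 and 0.805 CPM in the knockout, against 3.84 and 3.85 CPM in wild type, and was 5.09-fold lower (adjusted p 0.00312). LINC00663 was 4.17-fold lower (adjusted p 0.00487), with 1.41, 0.959 and 1.06 CPM in the knockout and 4.63 and 4.73 CPM in wild type. LINC01237 and LINC00663 had nearly equal values in both wild-type libraries, whereas the wild-type values of LINC-PINT were 2.55-fold apart. LINC00847 had 2.19, 3.80 and 3.22 CPM in the knockout, against 7.03 and 14.3 CPM in wild type (log2 change −1.82 ± 0.37 SE, adjusted p 0.0151). LINC01341 had 0.409, 0.277 and 0.205 CPM in the knockout, against 0.875 and 1.39 CPM in wild type (adjusted p 0.0195).

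The other 13 members called lower changed less, from −1.62 on the log2 scale for LINC02609 to −0.51 for LINC01089. LINC01578 (CHASERR) was among them, with 29.1, 28.0 and 31.97 CPM in the knockout against 44.9 and 38.3 CPM in wild type (log2 change −0.52 ± 0.13 SE, adjusted p 0.0271). Its neighbour CHD2 moved the same way, with 90.0, 75.0 and 78.8 CPM in the knockout against 131 and 130 CPM in wild type (log2 change −0.71, adjusted p 0.00892). LINC01126, whose start lies 601 bases from that of ZFP36L2, an RNA-binding protein that promotes mRNA decay, was also lower (log2 change −1.53, adjusted p 0.0440), and ZFP36L2 was lower with it (log2 change −0.96, adjusted p 0.0105).

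**Figure D3:**
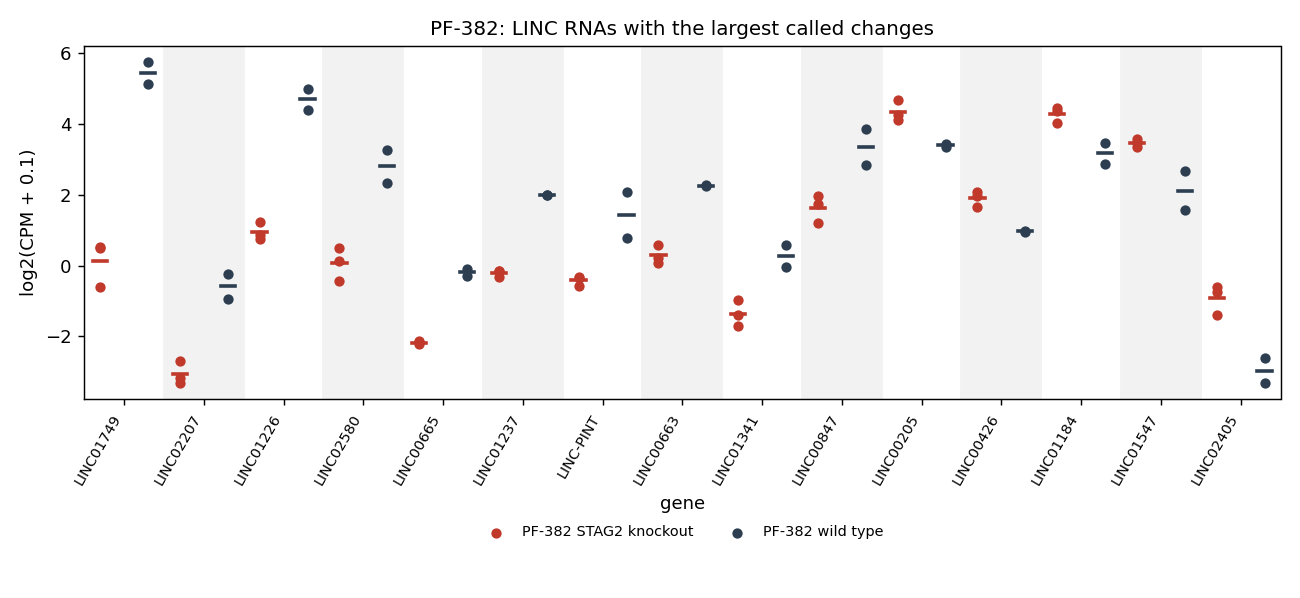
The 10 largest falls and the 5 rises called in PF-382 (x axis), with 1 point per library as log2(CPM + 0.1) on the y axis, knockout left of wild type; short lines mark group means. LINC01749 shows the widest gap, and no knockout point reaches a wild-type point of the same RNA.

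The 5 members called higher were LINC02405, LINC01547, LINC01184, LINC00426 and LINC00205. LINC02405 had 0.491, 0.277 and 0.560 CPM in the knockout libraries, against 0.0625 and 0 CPM in wild type. Only 2 counts were seen in wild type, against 95 in the knockout, so the pooled ratio of 13.5 had a 95% counting interval of 3.64 to 113 (edgeR adjusted p 0.0258). LINC01184 had 21.8, 20.3 and 16.3 CPM in the knockout, against 10.9 and 7.19 CPM in wild type (log2 change 1.08 ± 0.24 SE, adjusted p 0.0188). LINC00205 had 17.1, 25.5 and 18.9 CPM in the knockout, against 10.7 and 10.1 CPM in wild type (log2 change 0.95 ± 0.21 SE, adjusted p 0.0184). LINC00205 starts 152 bases from POFUT2, which encodes a protein O-fucosyltransferase and is transcribed the other way. POFUT2 had 15.0, 15.6 and 15.6 CPM in the knockout, against 21.8 and 22.8 CPM in wild type (log2 change −0.56, edgeR adjusted p 0.0188). The pair thus changed in opposite directions. The GC-rich window printed above spans the start of LINC00205 and the 250 bases before it. LINC01547 rose by 1.23 on the log2 scale (adjusted p 0.0377) and LINC00426 by 0.95 (adjusted p 0.0361). The members whose log2 CPM followed LINC02405 most closely over the 7 libraries were LINC00426, LINC01152 and LINC01963, with Pearson's r of 0.99, 0.98 and 0.94.

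Some members differed more between libraries of a group than between groups. LINC00667 had 4.44, 6.01 and 1.77 CPM in the knockout, against 21.4 and 0.615 CPM in wild type (log2 change −1.46, adjusted p 0.359). Its 2 wild-type values were 34.8-fold apart and enclosed all 3 knockout values. LINC00865, chosen after its values were seen, had 3.49, 0.0925 and 1.60 CPM in the knockout and 6.22 and 0 CPM in wild type. Its presence thus varied within both groups. The exons of LINC00667 overlap other genes on the opposite strand, as those of 30 members do, and whether counting used the strand is not given in the sources used here.

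The number of calls in PF-382 changed with the libraries used. Without knockout library 1, 2 or 3, 10, 9 and 9 members were called in place of 28. A run without 1 wild-type library leaves 1 in that group, so its spread comes from the knockout libraries alone. Calls gained or kept in such a run say nothing about the spread of wild type. LINC00663, LINC00665, LINC01226, LINC01237, LINC01749, LINC02207 and LINC02580 kept their call whichever knockout library was left out. Among the other members named above, LINC-PINT, LINC01547 and LINC01578 lost their call without any knockout library (highest adjusted p 0.0607, 0.118 and 0.0986), and LINC00426 did too (0.130). LINC00205 (0.0592), LINC00847 (0.0573), LINC01184 (0.0677), LINC01341 (0.0677) and LINC02405 (0.0757) lost it without some of them. The calls of LINC01578 and LINC00426 were also lost without the first wild-type library, and that of LINC01341 without the second. LINC01089 lost its call whichever of the 5 libraries was left out (adjusted p 0.0585 to 0.150). With upper-quartile scaling LINC00426 (0.0624) and LINC01547 (0.0650) were no longer called, and with no filter on low counts LINC01578 (0.0541) and LINC01089 (0.161). Without the first wild-type library the log2 change was −1.33 for LINC-PINT, 1.91 for LINC01547 and 7.80 for LINC02405. Without the second it was −1.19 for LINC00847 and 2.78 for LINC02405, and without knockout library 3 it was −6.06 for LINC02207.

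The titles of the PF-382 libraries also carry the letters SA (knockout library 1 and both wild-type libraries) or SB (knockout libraries 2 and 3), whose meaning the labels do not give. With these letters as a term beside the group, a fit added after seeing the data, 0 members were called higher and 2 lower, with 23 at an unadjusted p under 0.05. The 2 were LINC01226 and LINC01749 (edgeR adjusted p 0.0434 for both), and over all genes 291 were called higher and 147 lower in the knockout.

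Between the lines, most members differed, some by wide margins. PF-382 had 17 members higher and 45 lower than MOLT-14, and 38 were not called. Over all 20100 genes tested 27% were called higher and 28.4% lower, and over 3502 lncRNA genes 11.9% and 33%. The members' counts are in part set by the rule that chose them. The 25 that reached 100 counts in MOLT-14 alone had to be high there, and 24 of them were called lower in PF-382. The 17 that did so in PF-382 alone had to be high there, and 13 of them were called higher. Of the other 58, 4 were called higher and 21 lower in PF-382. Of all members, 7 were higher and 13 lower in PF-382 by 10-fold or more. The share of all genes past 10-fold was not computed, so these counts are a description and no result about the members. All 45 members called lower had every PF-382 library under both MOLT-14 libraries, as did 89.9% of all genes called lower. Of the 17 called higher, 16 had every PF-382 library above both, against 88.0% of all genes called higher, and LINC01749 was the exception. For members that entered through a single line the rule favoured such separation. The counts of members with lines apart are therefore a description and cannot be weighed against the shares of all genes. With 1 line of each kind, these tests compare these 2 lines and no classes of leukaemia. With the wild-type libraries alone standing for PF-382, 40 members were called, of which 25 were lower.

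**Figure D4:**
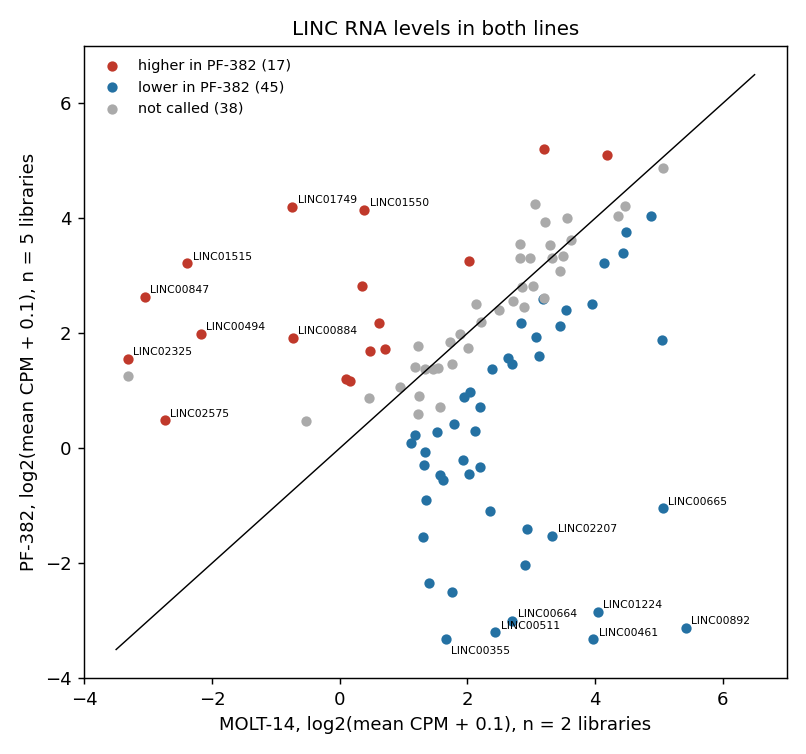
Mean levels of the 100 LINC RNAs as log2(mean CPM + 0.1), MOLT-14 on the x axis (2 libraries) and PF-382 on the y axis (5 libraries), with the diagonal marking equal levels. The 17 RNAs higher in PF-382 lie above the diagonal and the 45 lower ones under it, and the RNAs along the bottom and left edges were near 0 in one line.

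A group of members was near 0 in PF-382 and well counted in MOLT-14. The 8 described here entered through MOLT-14 alone, so their differences are a description, with no test. LINC00892 had 0.0164, 0 and 0.0273 CPM in the knockout and 0.0313 and 0 CPM in wild type, against 48.9 CPM with STAG2 and 36.7 CPM with the empty vector in MOLT-14. That is 4 counts in 5 PF-382 libraries against 4247 in 2 MOLT-14 libraries. LINC00892 lies 5764 bases from CD40LG, the gene of the CD40 ligand of activated helper T cells, and CD40LG showed the same pattern at a lower level, with at most 0.0324 CPM in PF-382, against 1.69 CPM with STAG2 and 2.64 CPM with the empty vector in MOLT-14. LINC00461, which hosts a copy of the microRNA miR-9, had no count in PF-382, against 15.5 CPM with STAG2 and 15.7 CPM with the empty vector in MOLT-14. Set against a floor of 3 counts per library, it was at least 161-fold lower in PF-382. Its nearest coding gene, MEF2C, was also lower in PF-382 (log2 difference −3.85). LINC00355 had no count in PF-382 either, against 2.73 CPM with STAG2 and 3.40 CPM with the empty vector in MOLT-14, and was at least 31.5-fold lower.

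LINC00511, LINC01224, LINC00664, LINC00665 and LINC02207 completed the 8 largest differences of this kind. LINC00511 had 3 counts in PF-382 against 528 in MOLT-14, a pooled ratio of MOLT-14 over PF-382 of 504 with a counting interval of 172 to 2452. The interval covers counting error only and is no test of the difference. LINC01224 averaged 0.0389 CPM in PF-382, against 18.5 CPM with STAG2 and 14.2 CPM with the empty vector in MOLT-14. LINC00664 averaged 0.0246 CPM in PF-382, against 6.83 CPM with STAG2 and 6.02 CPM with the empty vector in MOLT-14. LINC00665 averaged 0.384 CPM in PF-382 and 33.3 CPM in MOLT-14. The fitted log2 difference, which weights the groups of each line equally, was −6.73.

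The reverse pattern was shown by members that entered through PF-382 alone, so these differences too are given with no test. LINC02325 had 2.65, 2.72 and 2.17 CPM in the knockout and 3.81 and 2.91 CPM in wild type, and no count in either MOLT-14 library, which puts PF-382 at least 46.4-fold higher. LINC00847 averaged 6.11 CPM in PF-382 and had 2 counts in MOLT-14, for a pooled ratio of PF-382 over MOLT-14 of 238. Its counting interval of 65.9 to 1971 covers counting error only. LINC01515 was even in PF-382, with 9.53, 8.41 and 8.61 CPM in the knockout and 10.3 and 9.20 CPM in wild type. In MOLT-14 it had 0.0597 CPM with STAG2 and 0.123 CPM with the empty vector (log2 difference 6.72). LINC00494, LINC02575, LINC01550 and LINC00884 were higher in PF-382 by 5.01, 4.94, 3.92 and 3.01 on the log2 scale. Leaving out 1 library gave 3.84 to 5.87 for LINC02575, 3.33 to 4.51 for LINC01550 and 2.42 to 3.60 for LINC00884. LINC01749 was higher in PF-382 by 4.38 on the log2 scale, but it was high in the wild-type libraries alone, and the knockout libraries overlapped MOLT-14. The value was 2.96 without the empty-vector library and 5.78 without the STAG2 library.

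Coding neighbours were compared for members whose nearest coding gene lay within 100 kb without overlapping. Between the lines, 35 members with a tested neighbour were called, of whose neighbours 12 (34.3%) were called in the same direction and 6 (17.1%) in the opposite one. For other lncRNA genes the shares were 46.2% and 17.2% of 437. In PF-382, 14 members with a tested neighbour were called, and 1 neighbour was called in the same direction (ZFP36L2) and 1 in the opposite one (POFUT2). Among 178 other lncRNA genes called there, 25.3% had a neighbour called in the same direction and 15.2% in the opposite one. These shares are descriptions, and 19 further members overlapped a coding gene and were left out of them. LINC01578 is one of these, since its exons overlap those of AC013394.1 on the same strand, so the pair with CHD2 is not in the counts.

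Adding STAG2 to MOLT-14 moved few members by much. With 1 library on each side there is no test, so a change is a ratio of 2 libraries with a counting interval, on CPM scaled over this pair. Of 61 members with at least 5 CPM in either library, 3 were higher and 1 lower by more than 2-fold with STAG2 than with the empty vector, while 1.17% of all genes were higher and 0.769% lower. LINC02580 had 5.52 CPM with STAG2 and 2.13 CPM with the empty vector (log2 ratio 1.36, 95% counting interval 1.02 to 1.75). LINC00539 had 5.92 and 2.61 CPM in the STAG2 and empty-vector libraries (log2 ratio 1.17, interval 0.85 to 1.52). LINC02405 had 12.3 and 5.58 CPM (log2 ratio 1.14, interval 0.92 to 1.37). LINC00667 had 3.14 CPM with STAG2 and 13.7 CPM with the empty vector (log2 ratio −2.11, interval −2.41 to −1.85), but it is the member whose wild-type libraries in PF-382 were 34.8-fold apart. Scaled by total count alone, LINC00539 and LINC02405 were under 2-fold. The median log2 ratio of the 61 was −0.02, against 0.05 for all genes.

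LINC02580 was lower in the PF-382 knockout than in wild type and more than 2-fold higher in the STAG2-transduced MOLT-14 library than in the empty-vector one. LINC02207 was lower in the PF-382 knockout and had a log2 ratio of 0.55 with STAG2 in MOLT-14 (interval 0.37 to 0.74). LINC02405 went the other way, being higher in the PF-382 knockout and also higher with STAG2 in MOLT-14. Of the 16 members called in PF-382 that had 5 CPM or more in MOLT-14, 10 had opposite signs in the 2 comparisons and 6 had the same sign. Signs were opposite for 44.9% of the 3829 genes, and for 38.4% of the 159 lncRNA genes, that met the same conditions.

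**Figure D5:**
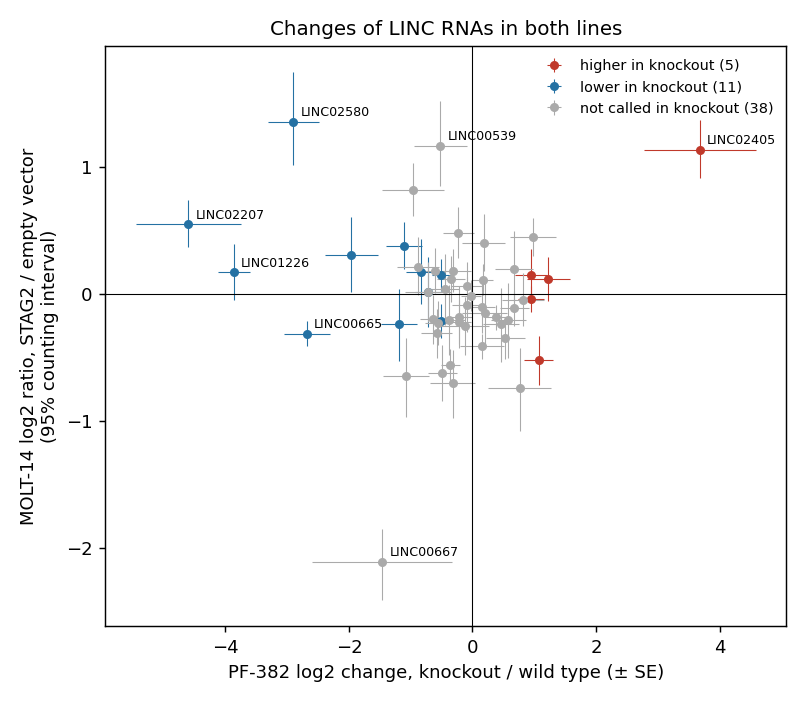
The 54 LINC RNAs tested in PF-382 that also had at least 5 CPM in a MOLT-14 library, with the PF-382 log2 change of knockout over wild type on the x axis (± 1 SE) and the MOLT-14 log2 ratio of STAG2 over empty vector on the y axis (95% counting interval). Most RNAs called in PF-382 lie near 0 on the y axis, LINC02580 is low on x and high on y, and LINC02405 is high on both.

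The difference of the 2 effects was tested directly, each coded as less STAG2 over more STAG2, with the lone MOLT-14 libraries taken to vary like those of PF-382. It was called for 2 of 100 members, while 0.607% of all genes and 0.171% of lncRNA genes were called. LINC00665 fell by 2.68 on the log2 scale in the PF-382 knockout. In MOLT-14 it had 35.2 CPM with STAG2 and 43.7 CPM with the empty vector, on CPM scaled over this pair alone. The difference of the effects, fitted with all 7 libraries scaled together, was −2.98 ± 0.35 SE (edgeR adjusted p 0.0477). LINC01226 fell by 3.86 in the PF-382 knockout. On the pair scaling it had 8.80 CPM with STAG2 and 7.80 CPM with the empty vector in MOLT-14. Its difference of the effects in the same fit was −3.68 ± 0.49 SE (edgeR adjusted p 0.0477). Both calls were lost without any 1 of the 3 knockout libraries, with adjusted p of 0.165, 0.204 and 0.201, and with a minimum of 1 CPM (0.0503). LINC01226 was also lost with median-ratio size factors (0.0504) and with upper-quartile scaling (0.0503).

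Members with a described product or role were few. A list of 42 such LINC genes held 18 members, of which 15 could be tested in PF-382, with 0 higher and 5 lower (LINC-PINT, LINC00665, LINC00847, LINC01089 and LINC01578) and a median log2 change of −0.51. Of lncRNA genes in general 3.4% were higher and 20.6% lower. Between the lines, 5 of the 18 were called higher and 5 lower in PF-382, where 27% of all genes were higher and 28.4% lower. Of these calls, only LINC01578 (higher) and LINC01089 (lower) were members that entered through both lines. The others entered only through the line where they were high, so their directions were favoured by the rule and are no result. The call of LINC01578 as higher rests on counts. In TPM, given above, the empty-vector library of MOLT-14 was above every PF-382 library. The STAG2 library of MOLT-14 lay within the PF-382 range, so the direction depends on the measure. LINC00662, LINC00339, LINC00641, LINC01003, LINC01215, LINC00467, LINC00324, LINC00667, LINC00910 and LINC01550 were not called in PF-382. Their log2 changes ran from −1.46 for LINC00667 to 0.39 for LINC01550. Between the lines LINC00339 had a ratio of PF-382 over MOLT-14 of 0.998, LINC00467 of 1.05 and LINC00641 of 0.852, and none of these differences was called (adjusted p 0.996, 0.825 and 0.338).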

How the data were processed

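Total RNA of 2 T-ALL cell lines was sequenced in 7 libraries. The members and gene lists were chosen with earlier results of these data known. Reads were aligned with STAR and quantified with RSEM against GRCh38 (hg38), per the submitters' processing notes; tool versions, annotation release and strand setting are not given in the sources used here. The authors deposited an expected count (estimated reads per gene, not normalized) and a TPM value (scaled per library and transcript length) for each gene, per the file headers. FPKM was not used. The 92 ERCC rows, with 3 counts in the MOLT-14 STAG2 library and 0 elsewhere, were left out.

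Expected counts were rounded; 25 of 100 members had fractional counts, which come from reads shared with other genes. Counts were tested in R 4.3.3 with edgeR 4.0.16 (TMM, filterByExpr, quasi-likelihood test, two-sided, Benjamini-Hochberg over all genes tested, threshold 0.05). All adjusted p values are of this kind. PF-382 was fitted alone; the line contrast (mean of both PF-382 groups against mean of both MOLT-14 groups) and the interaction used all 7 libraries. SEs were derived from the log2 change and F. MOLT-14 log2 ratios used a prior count of 2, and all counting intervals (95%, exact binomial) and floors cover counting error only. Positions came from GENCODE 29, which held all 100 members by gene ID, 37 in the same version. DESeq2 1.42.0, other scalings and filters, and leaving out each library were alternatives, and the tests were tried on simulated counts.

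Named were the 10 highest members by mean TPM, the 10 largest calls each way in PF-382 with groups apart, the 8 largest each way between lines, members past 2-fold in MOLT-14, members of the role list and interaction calls, with coding neighbours within 100 kb. LINC00865, LINC01126 and LINC02609 were named after their values were seen.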

Additional observations from a re-analysis of the deposited data

Results flagged for a closer look

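The STAG2 effect of 2 members differed between PF-382 and MOLT-14 by edgeR's test of the difference itself. For LINC00665 the difference was −2.98 on the log2 scale, and for LINC01226 it was −3.68 (adjusted p 0.0477 for both). In each, the PF-382 knockout was far under wild type, while the MOLT-14 STAG2 and empty-vector libraries differed little. LINC00665 had 27 counts in the knockout libraries and 49 in wild type, so its PF-382 side rests on few reads, and LINC01226 shares exons with TINAGL1. At an unadjusted p under 0.05 in that test there were 20 members. Such unadjusted counts are given without the share over all genes and are no result about the members. Both calls lie next to the threshold: each was lost with a minimum of 1 CPM (adjusted p 0.0503), and LINC01226 with median-ratio size factors (0.0504) and upper-quartile scaling (0.0503).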

How the results depend on the processing

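No paired analysis was possible because the labels carry no replicate numbers that the groups share. The 28 PF-382 calls kept their direction in every alternative run. All 28 were kept with median-ratio size factors, without small RNA genes and with DESeq2, 26 with upper-quartile scaling, 24 with no filter on low counts and 23 with a minimum of 1 CPM in 2 libraries. Calls higher in the knockout numbered 8 with DESeq2 and 3 under upper-quartile scaling, where the median over all genes was −0.18. With the letters SA or SB of the sample titles as a term, an alternative chosen after seeing the data, 2 members were called, 0 higher and 2 lower. Leaving out 1 library gave 9 to 36 calls, with 1 to 14 higher and 8 to 29 lower. Calls over all genes also fell without a knockout library, to 1194 higher and 1077 lower in the lowest case, against 2763 and 2548. Restricting members to at least 200 counts left 16 calls, 11 of them lower, and whole counts left 14 lower, as fewer members were tested. All 62 line calls were kept under every scaling and filter and with DESeq2. With wild type alone for PF-382, 40 were called, 25 of them lower, and 37 were shared, and the 200-count rule left 40, with 27 lower. In MOLT-14, total-count scaling, with an all-gene median of −0.20, gave 2 members past 2-fold, 1 of them higher, and a minimum of 1 CPM gave 8, with 6 higher and 2 lower. The interaction gave 1 call with median-ratio or upper-quartile scaling, 0 with the 1 CPM filter (22 at an unadjusted p under 0.05) and 0 among whole-count members. Leaving out a library gave 0 to 10 interaction calls, with 10 to 15 members at an unadjusted p under 0.05 where there were 0. Where no construction shows it, the cause was not tested. Depth limits members under 1 CPM, where 3 counts stand for 0.0347 to 0.0971 CPM.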

Other observations

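Of 51 named lncRNAs outside the LINC series, 35 could be tested in PF-382, with 6 higher and 10 lower in the knockout and a median log2 change of −0.30, where 15.8% of all genes tested were higher and 14.6% lower. LUNAR1, a Notch-regulated lncRNA of T-ALL, had 7.25, 6.41 and 4.59 CPM in the knockout, against 16.8 and 32.2 CPM in wild type (log2 change −2.04, adjusted p 0.00742). LEF1-AS1, the antisense partner of the T-cell factor gene LEF1, had 4.37, 4.15 and 4.64 CPM in the knockout, against 14.2 and 16.4 CPM in wild type (log2 change −1.83, adjusted p 0.00276). DLEU2, the host of miR-15a and miR-16, had 82.7, 55.9 and 95.3 CPM in the knockout, against 35.3 and 31.1 CPM in wild type (log2 change 1.20, adjusted p 0.0135). Between the lines 40 could be tested, with 13 higher and 18 lower in PF-382. Of all genes 27% were higher and 28.4% lower there, and of lncRNA genes 11.9% and 33%. FIRRE, an X-linked lncRNA of nuclear organisation, had at most 0.0938 CPM in PF-382, against 127 CPM with STAG2 and 143 CPM with the empty vector in MOLT-14. HOTAIRM1, transcribed between HOXA genes, had no count in PF-382, against 5.79 CPM with STAG2 and 5.10 CPM with the empty vector.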
